A study of Homo sapiens with 12 samples.

Results

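Rapamycin-treated oral squamous cell carcinoma (OSCC) cells were compared with untreated cells in pairs of RNA-seq libraries, and the genes described here are those whose response to rapamycin differed between the pairs. RNA-seq comprised 4 libraries of established human OSCC cells, rapamycin 1 and rapamycin 2 (100 nM rapamycin) and control 1 and control 2 (no rapamycin). The treatment for m6A immunoprecipitation (MeRIP-seq) lasted 3 days, and no other duration was given for RNA-seq. Pair 1 is rapamycin 1 against control 1, and pair 2 is rapamycin 2 against control 2. The response of a gene is its difference in log2(CPM + 0.5), rapamycin minus control, where CPM is the read count scaled to library size by the trimmed mean of M-values (TMM). Among 58302 gene identifiers, 11810 had a mean CPM of at least 5 in either pair, and 796 of these were members. A member had an opposite response of at least 2-fold in both pairs (15 genes), or a response in 1 pair only. The latter was at least 2-fold, with a log2 difference under 0.5 in the other pair and at least 2-fold between them. It was found for 89 genes in pair 1 and 411 in pair 2, and for 281 more with a mean CPM under 5 in 1 of the pairs. These values chose the members, so they are given as a description with no test.

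Rapamycin binds FKBP12, and the complex inhibits mTOR complex 1, a kinase that couples amino acids and growth factors to ribosome production, protein synthesis and lipid synthesis and that restrains autophagy. Inhibition of mTOR slows passage through the G1 phase of the cell cycle, so that genes of DNA replication, driven by E2F transcription factors at the entry to S phase, and genes of mitosis, driven later through MuvB-containing complexes, are common readouts of the drug. ATF4, a transcription factor of amino acid supply and stress, is itself partly under mTOR control.

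The labels left the cell line of each RNA-seq library unsettled. They give HSC3 for rapamycin 1 and 2 and CAL33 for control 1 and 2, and by those labels treatment and cell line cannot be told apart, whereas in the labels of the MeRIP-seq libraries number 1 marks HSC3 and number 2 marks CAL33, each with and without rapamycin. Both are lines derived from tongue carcinomas. Across 11810 genes, log2 CPM correlated at r = 0.952 between rapamycin 1 and control 1 and at r = 0.929 between rapamycin 2 and control 2, against 0.659 to 0.736 for the other pairs of libraries. Genes with a mean CPM of at least 5 in both number 1 libraries and under 0.5 in the number 2 libraries numbered 399, and 88 of them had an m6A peak listed in HSC3 but not in CAL33, against 9 with the reverse. In the other direction there were 153 genes, of which 26 had a peak in CAL33 but not HSC3 and 2 the reverse. By treatment, 1 gene met the same limits in rapamycin only and 0 in control only. The pairs are therefore called by their numbers throughout, and a difference between them may be one of cell line, culture or library, which cannot be told apart with 1 library per number and treatment.

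The libraries held 18492273 (rapamycin 1), 21653290 (control 1), 18763045 (rapamycin 2) and 23763098 (control 2) counts. Mitochondrial genes took 6.62%, 5.71%, 7.94% and 7.30% of them in the same order. Markers of squamous epithelium were present in both pairs, with a summed level over 10 genes of 1720 and 2170 CPM in rapamycin 1 and control 1 and of 4750 and 6320 CPM in rapamycin 2 and control 2. The most abundant was DSP, or desmoplakin, in pair 1 (470 and 670 CPM), KRT17 in rapamycin 2 and KRT5 in control 2. The pair 1 sum came mostly from DSP, ITGB4, SFN, CDH1 and EPCAM. KRT17 stood at 4.98, 4.92, 2090 and 1370 CPM in rapamycin 1, control 1, rapamycin 2 and control 2, and KRT5 at 6.01, 34.4, 322 and 1730 CPM. In the same order, TP63 stood at 13.3, 19.8, 348 and 338 CPM and KRT6A at 0.415, 4.41, 5.3 and 381 CPM. KRT14 had 0 counts in both libraries of pair 1, which allows up to 0.156 and 0.139 CPM. Fibroblast markers summed to 46.1 and 36.1 CPM in pair 1 and to 28.1 and 8.99 CPM in pair 2, most of it COL1A1, while COL1A2, COL3A1 and DCN had 0 counts in all 4 libraries. Endothelial markers summed to 1.45 and 2.46 CPM in pair 1 and 44.8 and 31.3 CPM in pair 2, led by CDH5 in all libraries but rapamycin 1, with KDR at 0 counts. Immune markers summed to at most 0.649 CPM in any library, led by CD14, with PTPRC at 0 counts.

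Responses differed in size as well as in direction. In pair 1, 1047 genes (8.87% of 11810) were at least 2-fold apart between rapamycin and control, 605 higher and 442 lower with rapamycin. In pair 2 there were 2237 (18.9%), 1160 higher and 1077 lower. The responses correlated across genes at Pearson's r = 0.561 and a Spearman rank correlation of 0.559 over 9955 genes at 5 CPM or more in both pairs, where each pair supplies all of its points from the same 2 libraries and genes are not independent replicates. A total of 478 genes (4.05%) were at least 2-fold apart in the same direction in both pairs, 285 higher and 193 lower. The difference between the responses, pair 1 minus pair 2, was at least 2-fold for 1552 genes (13.1%), 688 with the higher response in pair 1 (5.83%) and 864 in pair 2 (7.32%). Its median size was 0.415 on the log2 scale, against a median counting error of 0.117, so counting error was the smaller part of it. No library was repeated, and variation between libraries of the same kind is not contained in these intervals. The difference of differences uses all 4 libraries for 4 coefficients and leaves no residual degree of freedom, so it has no test.

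**Figure D1:**
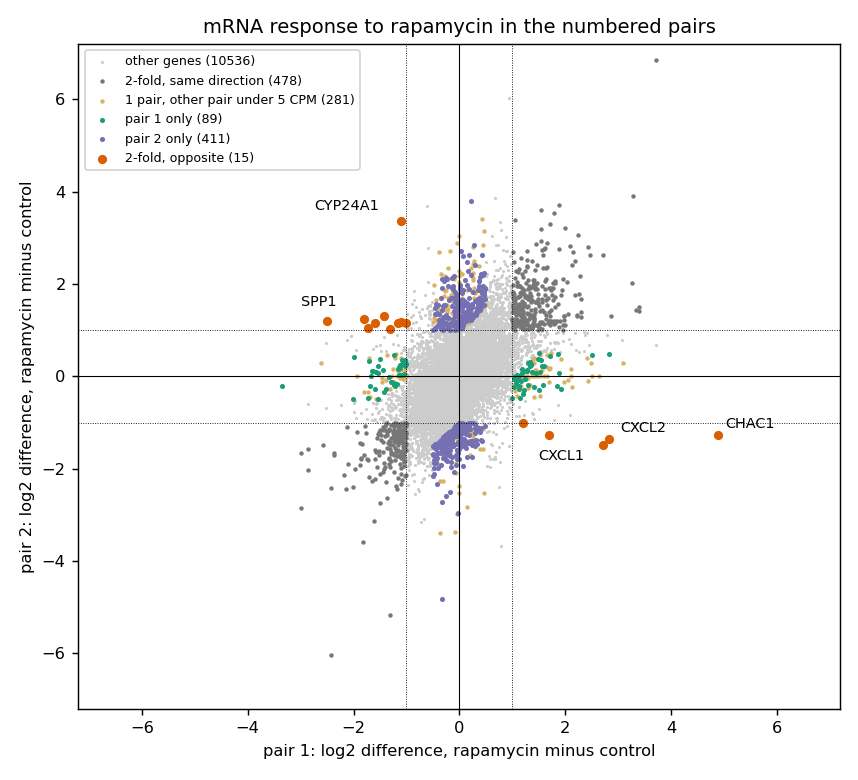
Each point is 1 of 11810 genes, placed by its log2 difference (rapamycin minus control) in pair 1 on the x axis and in pair 2 on the y axis, with dotted lines at 2-fold. The 15 genes with opposite responses lie in the upper left (10 genes) and lower right (5 genes), against 478 genes past 2-fold in the same direction.

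Opposite responses of at least 2-fold were found for 15 genes, or 0.127% of those measured, against 4.05% with the same direction. Of the 15, 8 had a mean of at least 5 CPM in both pairs. In 5 genes, among them CXCL2, CHAC1, CXCL1 and ZFP69B, the level was higher with rapamycin in pair 1 and lower in pair 2, and in 10 (ADGRF1, TRIM16L, SPP1, PARD6G-AS1, TNS4, RHOV, CYP24A1, TNIK, ID1 and METTL7A) it was the reverse. At the edge of the rule, METTL7A (-1.003 in pair 1, 1.17 in pair 2) and ZFP69B (1.197 and -1.01) were just inside, and EMP3 (-0.98 and 1.36) and IGFBP4 (-0.97 and 1.03) just outside. The count also depended on the pseudocount, with 32 genes at 0.1 CPM (14 higher with rapamycin in pair 1 and 18 in pair 2) and 7 at 2 CPM (4 and 3). At 2 CPM, ZFP69B, ADGRF1, PARD6G-AS1, TNS4, RHOV, CYP24A1, TNIK and METTL7A were lost.

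CHAC1 had the largest difference between the pairs among the 15. It encodes an enzyme that degrades glutathione and is a known target of ATF4 and CHOP, and lies at chr15:40953471-40956512 (RefSeq, GRCh38.p14). Its level was 72.4 CPM in rapamycin 1, 1.95 CPM in control 1, 8.82 CPM in rapamycin 2 and 22.0 CPM in control 2. The rapamycin 1 library was thus the highest and its own control the lowest, with both libraries of pair 2 between them. The response was 4.89 (95% counting interval 4.54 to 5.25) in pair 1 and -1.27 (-1.51 to -1.03) in pair 2, a difference of 6.16 (5.734 to 6.595). These and all following intervals cover counting error only. In bulk RNA, fewer cells that make a transcript and less of it per cell cannot be told apart.

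CXCL1 and CXCL2 encode chemokines that attract neutrophils. CXCL1 stood at 33.9 CPM in rapamycin 1, 10.1 CPM in control 1, 33.8 CPM in rapamycin 2 and 81.9 CPM in control 2. The rapamycin libraries were level, and the controls lay on either side of them. CXCL2 stood at 29.1 CPM in rapamycin 1, 3.67 CPM in control 1, 2.65 CPM in rapamycin 2 and 7.57 CPM in control 2, with rapamycin 1 above the other 3 libraries. CXCL1 and CXCL2 are similar in sequence, and reads shared between them may have been split or dropped by the counting.

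Genes lower with rapamycin in pair 1 and higher in pair 2 included secreted, signalling and transcriptional regulators. SPP1, which encodes the secreted phosphoprotein osteopontin, stood at 4.36 CPM in rapamycin 1, 27.2 CPM in control 1, 39.3 CPM in rapamycin 2 and 16.8 CPM in control 2. The lowest and the highest of its levels were both in rapamycin libraries. ID1, an inhibitor of basic helix-loop-helix transcription factors and a known target of BMP signalling, stood at 11.6 CPM in rapamycin 1, 29.3 CPM in control 1, 581 CPM in rapamycin 2 and 286 CPM in control 2. Both of its pair 2 libraries were above both of its pair 1 libraries. TNIK, a kinase of Wnt signalling and the cytoskeleton, stood at 8.87 CPM in rapamycin 1, 30.3 CPM in control 1, 10.1 CPM in rapamycin 2 and 4.601 CPM in control 2. The control 1 library was the highest for TNIK. Its response was -1.72 (-1.95 to -1.49) in pair 1 and 1.06 (0.74 to 1.37) in pair 2.

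The remaining genes of that direction were mostly low in pair 1. CYP24A1, the enzyme that inactivates vitamin D, stood at 0.363 CPM in rapamycin 1, 1.35 CPM in control 1, 12.7 CPM in rapamycin 2 and 0.774 CPM in control 2, and rapamycin 2 alone was above 5 CPM. TNS4, a focal adhesion protein of epithelia, stood at 2.64, 6.55, 184 and 81.8 CPM in rapamycin 1, control 1, rapamycin 2 and control 2. RHOV, an atypical small GTPase, was at 1.504, 3.81, 80.8 and 35.4 CPM in the same order. For TNS4 and RHOV, as for the adhesion receptor ADGRF1 (1.35, 4.46, 112 and 45.0 CPM) and for METTL7A (0.259, 1.02, 57.5 and 25.3 CPM), the libraries of pair 2 were above those of pair 1. TRIM16L was at 35.4, 124, 56.0 and 23.5 CPM, with control 1 the highest. TRIM16L is a transcribed pseudogene close in sequence to TRIM16, which stood at 13.4, 39.6, 28.7 and 27.3 CPM, so the division of reads between them is uncertain. PARD6G-AS1, an antisense RNA, had at most 10.6 CPM (control 1), and the use of strand in the counting was not stated. ZFP69B, a zinc finger gene, stood at 7.67, 3.07, 0.811 and 2.15 CPM, with both libraries of pair 2 below both of pair 1.

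**Figure D2:**
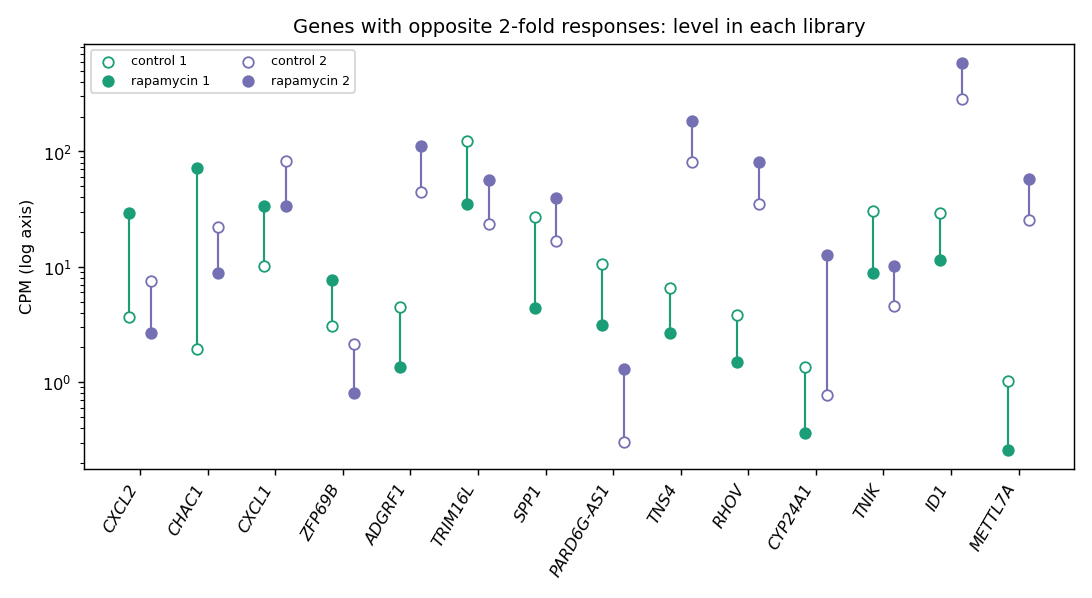
Level in CPM (log axis) of 14 genes with opposite 2-fold responses in each of the 4 libraries, with open circles for controls, filled circles for rapamycin, and a line joining the libraries of a pair. CHAC1 spans 1.95 to 72.4 CPM in pair 1 and 22.0 to 8.82 CPM in pair 2, and for genes such as ID1 and TNS4 the pairs lie at different levels altogether.

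Responses of 1 pair only were more frequent in pair 2. With at least 5 CPM in both pairs, 89 genes (0.754%) were specific to pair 1, 46 higher and 43 lower with rapamycin, and 411 (3.48%) to pair 2, 211 higher and 200 lower. These shares stand beside the larger number of 2-fold responses in pair 2 (18.9% against 8.87%). The division of the pair 1 genes depended on scaling, with 60 higher and 29 lower on total counts and 57 higher and 32 lower after each pair was centred on its median response. The pair 2 genes divided into 196 higher and 240 lower on total counts, and into 238 higher and 165 lower with upper-quartile scaling.

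The largest responses specific to pair 1 included genes of lipid transport and of signalling between cells. ABCA1, which exports cholesterol from cells, stood at 30.2 CPM in rapamycin 1, 3.81 CPM in control 1, 12.01 CPM in rapamycin 2 and 8.47 CPM in control 2. IL1B, the cytokine interleukin 1 beta, stood at 94.7 CPM in rapamycin 1, 16.4 CPM in control 1, 34.2 CPM in rapamycin 2 and 24.5 CPM in control 2. For ABCA1 and IL1B alike, rapamycin 1 was the highest library and control 1 the lowest. AREG, a ligand of the EGF receptor, stood at 167 CPM in rapamycin 1, 45.1 CPM in control 1, 18.1 CPM in rapamycin 2 and 17.2 CPM in control 2. KCTD15 was also higher in rapamycin 1 only (1.92 in pair 1, -0.28 in pair 2). KIF20A, a kinesin of the mitotic spindle (-2.01 and -0.50), the zinc finger gene ZSCAN31 (-1.998 and 0.42) and the homeobox gene NKX1-2 (-1.73 and -0.47) were lower in rapamycin 1.

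Among genes specific to pair 2, SOCS3, a feedback inhibitor of JAK-STAT signalling, stood at 36.4 CPM in rapamycin 1, 35.7 CPM in control 1, 82.2 CPM in rapamycin 2 and 12.1 CPM in control 2. Its pair 1 libraries were level, between those of pair 2, with responses of 0.03 (-0.12 to 0.17) and 2.71 (2.54 to 2.89). DEPP1, a known target of FOXO transcription factors, stood at 8.24, 7.01, 22.7 and 1.16 CPM in rapamycin 1, control 1, rapamycin 2 and control 2. BMF, a BH3-only protein that promotes apoptosis, was at 16.2, 11.9, 9.58 and 1.12 CPM in the same order. For DEPP1 and BMF, control 2 was the lowest library. BLACAT1 had responses of 0.19 and 2.64.

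Among the genes lower in pair 2 alone, TNC, which encodes the matrix glycoprotein tenascin C, stood at 355 CPM in rapamycin 1, 360 CPM in control 1, 4.54 CPM in rapamycin 2 and 38.7 CPM in control 2. P3H2, a collagen prolyl hydroxylase that is not on the matrix list, stood at 24.9, 30.0, 1.73 and 13.0 CPM in the same order. In both genes rapamycin 2 was the lowest library. CPA4, a secreted carboxypeptidase, stood at 16.3 CPM in rapamycin 1, 20.6 CPM in control 1, 0.703 CPM in rapamycin 2 and 33.5 CPM in control 2. Its response of -4.82 (-5.29 to -4.35) in pair 2, against -0.33 (-0.53 to -0.12) in pair 1, was the largest among genes specific to pair 2. CCNE2, or cyclin E2, which drives entry to S phase, stood at 16.6, 21.04, 9.63 and 66.4 CPM, with control 2 the highest.

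Genes of DNA replication were lower with rapamycin in pair 2 by more than in pair 1. The list held 33 genes, with a median response of -0.45 in pair 1 and -1.47 in pair 2, beside medians of -0.07 and -0.05 over all genes measured. In pair 2, 27 of 33 were at least 2-fold lower (9.12% of all genes), and in pair 1, 1 of 33 (3.74% of all genes). The difference between the pairs was positive for 33 of 33, beside 5131 of the 9955 genes with at least 5 CPM in both pairs. Of the 33, 18 (54.5%) were at least 2-fold apart, against 13.1% of all genes. Genes of mitosis had the lower median in pair 1. The 30 genes had a median of -1.06 in pair 1 and -0.59 in pair 2. At least 2-fold lower were 17 in pair 1 and 2 in pair 2 (3.74% and 9.12% of all genes). The difference was negative for 28 of 30, beside 4824 of the 9955 genes. Only 4 of 30 (13.3%) were at least 2-fold apart, a share near that of all genes. The members of a list are co-regulated and were measured in the same 4 libraries, so these counts are not independent observations.

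UHRF1, which carries DNA methylation through replication, stood at 155 CPM in rapamycin 1, 208 CPM in control 1, 38.4 CPM in rapamycin 2 and 196 CPM in control 2. The rapamycin 2 library alone was far from the others. MCM6, a subunit of the replicative helicase, stood at 62.0 CPM in rapamycin 1, 63.9 CPM in control 1, 68.2 CPM in rapamycin 2 and 235 CPM in control 2. Here control 2 was the library that stood apart, and the other 3 were level. POLE2, a subunit of DNA polymerase epsilon, stood at 9.12, 9.85, 5.90 and 26.3 CPM, with control 2 again the highest. The sliding clamp PCNA was at 223, 385, 132 and 488 CPM and was lower with rapamycin in both pairs (-0.79 and -1.88). RFC3, a clamp loader subunit, was the list's only gene at least 2-fold lower in both pairs, with responses of -1.14 and -1.40. CDT1, a licensing factor, was at -0.38 and -0.45, with an interval of the difference (-0.05 to 0.19) that included 0. CCNE1, or cyclin E1, was at 0.50 and -0.50.

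The list of replication-dependent histone genes, a class made mainly in S phase, differed between the pairs in the other direction from the replication genes. Only 6 of 22 listed were measured, with medians of -0.88 in pair 1 and 0.21 in pair 2. At least 2-fold higher with rapamycin were 1 of 6 in pair 1 and 2 of 6 in pair 2 (5.12% and 9.82% of all genes), and at least 2-fold lower 1 and 0 (3.74% and 9.12%), so the medians do not describe every member. The largest response was 2.15 in pair 1 and 2.70 in pair 2. The summed level of the list was higher with rapamycin in both pairs, at 921 and 340 CPM in rapamycin 1 and control 1 and 1530 and 264 CPM in rapamycin 2 and control 2. In pair 1, 1 of 6 genes lay above its control and 5 below. The rise of the sum in pair 1 thus rested on 1 gene and does not describe the list. The difference was negative for 6 of 6, and 3 were at least 2-fold apart, against 13.1% of all genes. With at least 5 CPM in both pairs, 2 of 5 were 2-fold apart, without H2BC5. H2BC21 stood at 6.43 CPM in rapamycin 1, 12.4 CPM in control 1, 22.1 CPM in rapamycin 2 and 7.14 CPM in control 2, with responses of -0.89 and 1.57. H2AC6 (-0.86 and 0.18) and H2BC5 (-1.25 and 0.16) were the others 2-fold apart. Most histone genes have near-identical copies, so their counts are uncertain.

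Of the mitotic genes, KIF20A stood at 30.4 CPM in rapamycin 1, 124 CPM in control 1, 104 CPM in rapamycin 2 and 146 CPM in control 2. CENPA, the histone variant of centromeres, stood at 12.6 CPM in rapamycin 1, 41.8 CPM in control 1, 19.2 CPM in rapamycin 2 and 22.1 CPM in control 2. In both, rapamycin 1 was the lowest library. The mitotic kinases AURKA (-1.87 in pair 1, -0.80 in pair 2) and PLK1 (-1.77 and -0.71) were lower with rapamycin in both pairs. MKI67, which encodes the proliferation marker Ki-67, stood at 364, 988, 446 and 948 CPM, with both rapamycin libraries below both controls, and it was at least 2-fold lower in both pairs. ANLN, a scaffold of cytokinesis, was at -1.45 and -1.43. CCNA2, or cyclin A2, and BUB1B, a checkpoint kinase, were the 2 genes of the list with a difference above 0 (0.14 and 0.04), each with an interval that included 0.

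**Figure D3:**
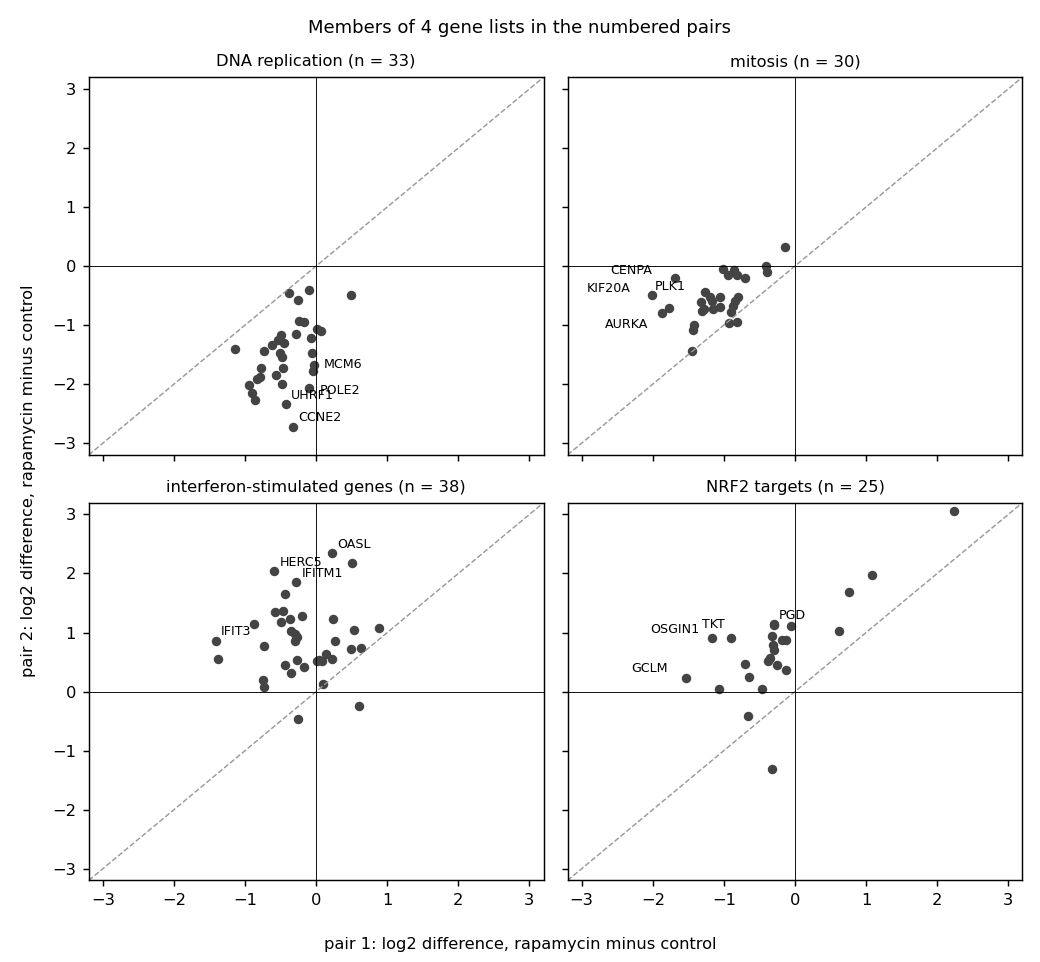
Each point is a gene of 1 of 4 lists, placed by its log2 difference (rapamycin minus control) in pair 1 on the x axis and in pair 2 on the y axis, with a dashed line where the responses are equal. All 33 replication genes lie below the line, whereas 28 of 30 mitotic genes, 36 of 38 interferon-stimulated genes and 24 of 25 NRF2 targets lie above it. With at least 5 CPM in both pairs, 24 of 26 interferon-stimulated genes and 17 of 17 NRF2 targets lie above the line. Of all 9955 such genes, 4824 do.

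The replication and mitosis genes also differed in their promoters, which the choice of genes did not use. RefSeq promoter sequences of 300 bases (250 before and 50 after the start, GRCh38.p14) were found for 29 of 33 replication genes and 24 of 30 mitosis genes. An E2F motif (TTTCCCGC, TTTCGCGC, TTTGCCGC or TTTGGCGC, either strand) was in 19 of 29 replication promoters (65.5%) and 3 of 24 mitosis promoters (12.5%), against 3.33% of all 27305 promoters and 5.46% of those of the genes measured. The cell cycle homology region motif (CHR, TTTGAA, either strand) was in 15 of 24 mitosis promoters (62.5%) and 1 of 29 replication promoters (3.45%), against 15.4% of all promoters and 9.39% of those of the genes measured. The E2F and CHR letters share no whole motif. Among replication genes, the E2F motif was in 11 of 15 promoters of genes at least 2-fold apart between the pairs and in 8 of 14 of the others, and for CHR among mitosis genes the counts were 2 of 3 and 13 of 21. A match is a description of the letters and not a site of binding. The stretches below are examples of matches before a start of replication genes, and then of mitotic genes, at least 2-fold apart between the pairs. The replication genes shown are UHRF1 (chr19:4909478-4909500, plus strand), MCM6 (chr2:135876513-135876538, minus strand), POLA1, the catalytic subunit of DNA polymerase alpha (chrX:24693772-24693797, plus strand), and PCNA (chr20:5126665-5126690, minus strand). GINS2, LIG1 and POLE, also at least 2-fold apart, had E2F matches that are not shown. The start used for UHRF1 lies inside its locus, which begins at chr19:4903080. The mitotic genes shown are CENPA (chr2:26786028-26786053, plus strand) and PLK1 (chr16:23678850-23678875, plus strand). Each stretch runs 5′ to 3′ along the strand of its gene, and capitals mark the motif, which on the E2F promoters shown is read on the opposite strand. In MCM6 a match on the gene's own strand (TTTGGCGC) overlaps the capitals.
UHRF1: cgagttttcGCGGGAAAaaaatc
MCM6: tcaggtttgGCGCGAAAtctccagct
POLA1: catcacaggGCGCCAAAcgcgcgtcc
PCNA: gcgtcagggGCGGGAAAaggcgtgcg
CENPA: gagcgagcgaTTTGAAcgcgagcggc
PLK1: cagcgccgcgTTTGAAttcggggagg

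Interferon-stimulated genes, which respond to STAT and IRF transcription factors, had a median response above 0 in pair 2 and below 0 in pair 1. Of 42 genes listed, 38 were measured, with medians of -0.27 in pair 1 and 0.86 in pair 2, beside -0.07 and -0.05 over all genes measured. In pair 1, 15 of 38 lay above their control, by at most 0.88, and in pair 2, 36 of 38. The medians and these counts include genes with a mean under 5 CPM in 1 pair, where the response is understated. In pair 2, 15 of 38 were at least 2-fold higher and 0 lower (9.82% and 9.12% of all genes), and in pair 1, 0 were higher and 2 lower (5.12% and 3.74%). At least 2-fold between the pairs were 18 of 38 (47.4%), against 13.1% of all genes, each with the higher response in pair 2 (7.32% of all genes). Several of the 18, OASL and IFITM1 among them, had a mean under 5 CPM in pair 1 and were measured only through pair 2. Of the 26 genes with at least 5 CPM in both pairs, 10 (38.5%) were 2-fold apart, against 10.6% of all 9955 such genes. The difference, pair 1 minus pair 2, was negative for 24 of the 26, beside 4824 of the 9955. HERC5, the ligase of the ubiquitin-like protein ISG15, stood at 29.9 CPM in rapamycin 1, 45.2 CPM in control 1, 180 CPM in rapamycin 2 and 43.6 CPM in control 2. The controls were level and the rapamycin libraries lay on either side of them. IFIT3 stood at 4.82, 13.7, 214 and 118 CPM, with a response of -1.42 in pair 1 and 0.86 in pair 2. OASL stood at 1.71, 1.39, 924 and 182 CPM, with both pair 1 libraries under 5 CPM. IRF1, a transcription factor of the pathway, stood at 50.3, 65.0, 173 and 73.6 CPM, with rapamycin 2 the highest. GBP1, a guanylate-binding protein, was at 10.8, 15.1, 68.1 and 26.2 CPM. USP18 (-0.26 and -0.46) and HERC6 (0.61 and -0.24) were the genes with a difference above 0.

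NRF2 targets, which serve glutathione synthesis, NADPH supply and iron storage, also had a median above 0 in pair 2 and below 0 in pair 1. The 25 genes measured had medians of -0.31 in pair 1 and 0.79 in pair 2. In pair 2, 7 were at least 2-fold higher (9.82% of all genes) and 1 at least 2-fold lower (9.12%), the transporter ABCC2 (-0.33 in pair 1, -1.31 in pair 2). In pair 1, 2 were at least 2-fold higher and 3 lower (5.12% and 3.74%). The difference was negative for 17 of the 17 genes with at least 5 CPM in both pairs, beside 4824 of all 9955 such genes. Of the 17, 9 (52.9%) were at least 2-fold apart between the pairs, against 10.6% of the 9955. Over all 25 the count was 13 (52.0%, beside 13.1% of all genes). Some of the 13 were near absent in pair 1, and the count over 25 was 17 with a pseudocount of 0.1 CPM and 11 with 2 CPM. TKT, the transketolase of the pentose phosphate pathway, stood at 366 CPM in rapamycin 1, 684 CPM in control 1, 2291 CPM in rapamycin 2 and 1228 CPM in control 2. It was lower with rapamycin in pair 1 (-0.90) and higher in pair 2 (0.90), just short of 2-fold in each. PGD, which makes NADPH in the same pathway, stood at 148, 183, 1261 and 573 CPM, and both of its pair 2 libraries were above both of pair 1. OSGIN1, an oxidative stress gene, stood at 9.75, 22.6, 22.1 and 11.6 CPM, with the control of pair 1 level with the rapamycin library of pair 2. The subunits of glutamate-cysteine ligase, which makes the precursor of glutathione, were GCLM (-1.54 in pair 1, 0.23 in pair 2) and GCLC (-0.29 and 1.13). FTL, the light chain of ferritin, stood at 4197, 4356, 729 and 339 CPM, and NQO1, a quinone reductase, at 258, 419, 572 and 415 CPM. SLC7A11, the cystine transporter and a member of the ATF4 list too, was higher in both pairs (2.23 and 3.06). The AKR1C genes are near-identical copies, so their counts are uncertain, and AKR1C2 was at 0.207 and 0.372 CPM in pair 1 against 1110 and 680 CPM in pair 2.

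ATF4 targets had medians above 0 in both pairs, with the higher one in pair 1. The 28 genes had medians of 1.16 in pair 1 and 0.56 in pair 2. In pair 1, 15 were at least 2-fold higher (5.12% of all genes), and in pair 2, 8 were (9.82%), while 5 lay below their control there and CHAC1 was at least 2-fold lower. Of the 9 genes (32.1%, against 13.1% of all genes) at least 2-fold apart, 8 had the higher response in pair 1. With at least 5 CPM in both pairs, 6 of 23 (26.1%) were 2-fold apart, against 10.6% of all 9955 such genes, all 6 with the higher response in pair 1. CTH, which makes cysteine from cystathionine, stood at 71.2 CPM in rapamycin 1, 7.99 CPM in control 1, 4.92 CPM in rapamycin 2 and 2.62 CPM in control 2. ASNS, asparagine synthetase, stood at 10.3, 1.53, 4.87 and 3.57 CPM. In both genes rapamycin 1 was the highest library. SESN2, an amino acid sensor that restrains mTOR complex 1 and a member of the p53 and mTOR lists too, stood at 154, 42.0, 37.0 and 57.2 CPM, with responses of 1.86 and -0.62. DDIT4, another restraint on mTOR complex 1, was higher in both pairs (3.26 and 2.03), as was TRIB3 (1.57 and 1.18). ATF4 mRNA was at 649, 394, 521 and 443 CPM. NUPR1, a stress regulator, was the gene at least 2-fold apart with the higher response in pair 2 (0.60 and 2.04), with 0.259 and 0 CPM in pair 1.

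Inflammatory genes did not divide in 1 direction. The 29 genes had medians of 0.94 and 0.86. With at least 5 CPM in both pairs, 8 of 16 were 2-fold apart, against 10.6% of all 9955 such genes. Of the 8, 5 had the higher response in pair 1 and 3 in pair 2. Over all 29 genes, 17 (58.6%) were at least 2-fold apart (13.1% of all genes), 10 with the higher response in pair 1 and 7 in pair 2 (5.83% and 7.32%). The counts over 29 include genes with little RNA in 1 pair, such as IL6, IL24, CSF2, CCL20 and CCL5, and are no measure of a differing response there. Beside CXCL1 and CXCL2, the pair 1 side held IL1A, interleukin 1 alpha, at 102 CPM in rapamycin 1, 9.15 CPM in control 1, 8.71 CPM in rapamycin 2 and 2.97 CPM in control 2. It also held IL6, at 37.7 and 8.31 CPM in pair 1 and 0.108 and 0.043 CPM in pair 2, where no response could be seen. The pair 2 side held CCL20, a chemokine for CCR6-bearing cells, at 1.30, 0.836, 46.1 and 3.87 CPM, and BIRC3, an inhibitor of apoptosis, at 14.5, 18.3, 52.7 and 13.6 CPM. For CCL20 and BIRC3, rapamycin 2 was the highest library. TNFAIP2 was higher in both pairs (0.90 and 2.72) and reached 5274 CPM in rapamycin 2.

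**Figure D4:**
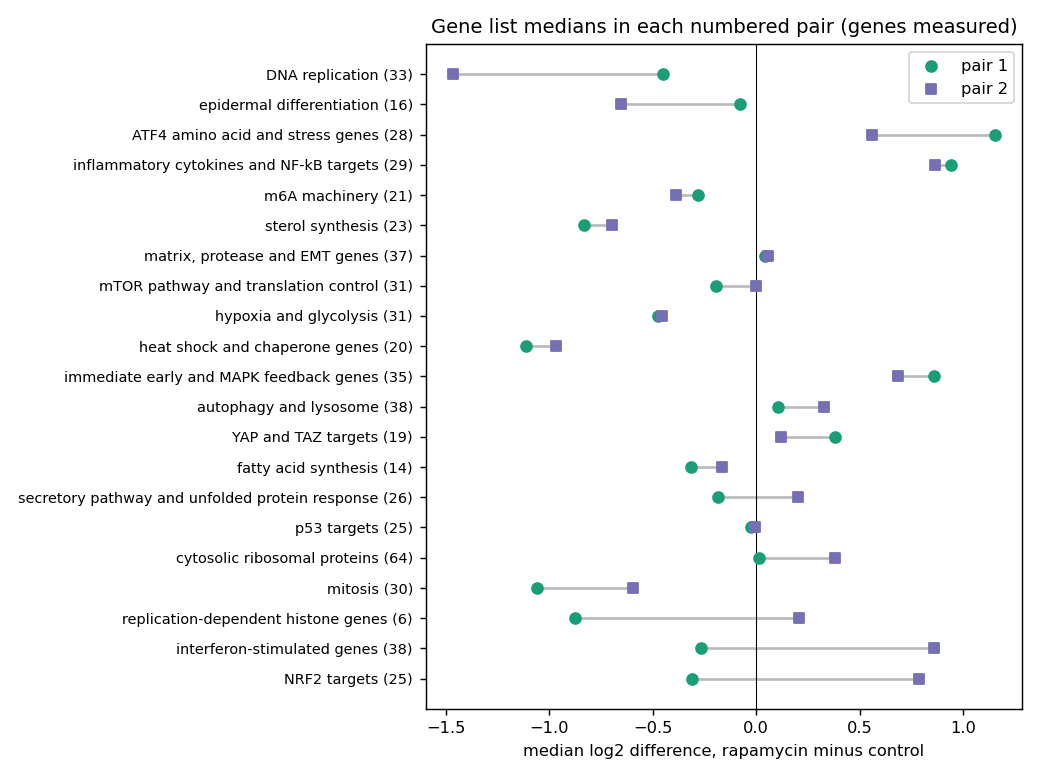
Median log2 difference (rapamycin minus control) of 21 gene lists in pair 1 (circles) and pair 2 (squares), with the number of genes measured in brackets, ordered by the median difference between the pairs. DNA replication (-0.45 and -1.47) is at the top, and interferon-stimulated genes (-0.27 and 0.86) and NRF2 targets (-0.31 and 0.79) at the bottom.

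Sterol synthesis genes had medians of -0.83 and -0.69, with 10 of 23 at least 2-fold lower in pair 1 and 9 in pair 2 (3.74% and 9.12% of all genes), but single genes differed. INSIG1, a sterol sensor, stood at 17.7, 41.6, 18.8 and 21.2 CPM, with control 1 the highest, and was at least 2-fold lower in pair 1 only. SQLE, squalene epoxidase, was lower in both, and by more in pair 2 (-0.86 and -2.11). Heat shock and chaperone genes had medians of -1.11 and -0.96, with 11 and 9 of 20 at least 2-fold lower (3.74% and 9.12% of all genes). HSPA8 was among them (-1.50 and -2.73), while HSPB1 was at -0.64 and 0.62. Ribosomal protein genes had medians of 0.01 and 0.38, with 1 of 64 genes (RPS28) at least 2-fold apart, against 13.1% of all genes. The difference, pair 1 minus pair 2, was nonetheless negative for 59 of 64. It was negative for 4824 of the 9955 genes with at least 5 CPM in both pairs. Autophagy and lysosome genes had medians of 0.10 and 0.33 and 2 of 38 (5.26%) at least 2-fold apart, again against 13.1% of all genes. The 2 were GABARAPL1, an autophagosome protein (1.28 and 2.51), and the lysosomal protease CTSB (0.09 and 1.18). The m6A machinery had 0 of 21 genes at least 2-fold apart, beside the same 13.1%, with METTL14 at 19.9, 19.3, 19.0 and 21.2 CPM. Its interval of the difference, -0.08 to 0.47, included 0.

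The epidermal differentiation list had 16 of 37 genes measured, and 5 (31.2%) were at least 2-fold apart, against 13.1% of all genes, with medians of -0.08 in pair 1 and -0.65 in pair 2. Only 6 of the 16 had at least 5 CPM in both pairs, and 0 of those were 2-fold apart. KRT6A, a keratin of activated keratinocytes, stood at 0.415 CPM in rapamycin 1, 4.41 CPM in control 1, 5.30 CPM in rapamycin 2 and 381 CPM in control 2, lower with rapamycin in both pairs. KRT13, a keratin of the oral lining, stood at 0.467, 0.372, 245 and 644 CPM, and KRT16 at 1.82, 1.95, 24.0 and 6.71 CPM, so that these keratins differed in direction within pair 2. Among immediate early genes, EGR1 stood at 437 CPM in rapamycin 1, 32.7 CPM in control 1, 157 CPM in rapamycin 2 and 97.7 CPM in control 2, with rapamycin 1 the highest. ETV4, a transcription factor downstream of MAPK signalling, stood at 87.2, 94.4, 65.1 and 16.3 CPM, with control 2 the lowest. Among p53 targets, AEN, a nuclease, stood at 46.6, 65.9, 8.39 and 38.9 CPM, and was at least 2-fold lower in pair 2 only.

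Genes with a response in 1 pair only and a mean under 5 CPM in 1 of the pairs made up 281 of the 796 members, not counting the opposite genes. In 90 of them the response was in pair 1 (61 higher and 29 lower) and in 191 in pair 2 (139 higher and 52 lower). The median level in the other pair was 0.183 CPM for the former and 3.54 CPM for the latter. For some genes, ABLIM3 among them, the pair that responded was itself the low one. ABLIM3 had means of 47.7 CPM in pair 1 and 0.827 CPM in pair 2, and its pair 2 response rested on 25 counts with rapamycin and 7 in control. A low count in the other pair limits what response could be seen there, and one in the responding pair makes the response less certain. The 281 genes included the cytokines IL6, IL24 and CSF2 on the pair 1 side and OASL, IFITM1 and CCL5 on the pair 2 side.

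The share of genes at least 2-fold apart between the pairs was 19.0% at 5 to 20 CPM (3406 genes) and 8.31% at 100 CPM and over (2189 genes). Members were of lower abundance than other genes, with a median level over the 4 libraries of 16.5 CPM against 34.1 CPM for all genes measured.

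The m6A peak lists were a readout that the choice of genes did not use. An m6A peak is a stretch of transcript enriched by an antibody to N6-methyladenosine over the input RNA, and the lists come from 1 immunoprecipitated library and its input for each cell line and treatment. A peak in any of the 4 lists was found for 320 of 796 members (40.2%, 95% Wilson interval 36.8% to 43.6%) and for 5114 of 11810 genes measured (43.3%, 42.4% to 44.2%), with the lower abundance of members beside it. Genes specific to either pair had a share of 47.2% (42.9% to 51.6%), and those alike in both pairs 45.4% (41.0% to 49.9%). Members with under 5 CPM in 1 pair had lower shares, 26.7% (18.6% to 36.6%) where the response was in pair 1 and 28.3% (22.4% to 35.0%) where it was in pair 2, with median levels of 5.35 and 6.39 CPM.

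CHAC1 had a peak in its coding sequence with rapamycin and none in the control list, in both cell lines. In HSC3 it lay at chr15:40955654-40955863 (hg38) with a fold enrichment of 10.9, and in CAL33 at chr15:40955595-40955833 with 26.8. Peaks in SOCS3 (chr17:78357164-78357342, fold enrichment 145), DEPP1 (chr10:44976476-44976685, 33.5) and BMF (chr15:40091182-40091421, 77.7), all in the 3′ UTR, were listed in CAL33 with rapamycin and in no other list. TNC had coding peaks in HSC3 with and without rapamycin (chr9:115086029-115086388 with rapamycin, fold enrichment 729) and none in CAL33. No depth is known for the peak lists, and a transcript at low level gives few reads for a peak to be called, and whether expression alone gave these presences was not tested.

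Across both pairs together, edgeR's quasi-likelihood test called 0 of 15826 genes between rapamycin and control at an adjusted p of 0.05 (446 at an unadjusted p under 0.05, and 36 genes by DESeq2). With the replicate number as a block it called 1290 (8.15%), 736 higher and 554 lower. That fit holds 1 response for both pairs, so an opposite response enters its residual. Nothing in the labels says that the libraries came from separate cultures, so these tests measure only the spread between the libraries.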

How the data were processed

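Values came from RNA-seq (4 libraries) and from MeRIP-seq peak lists (4 lists, each from 1 immunoprecipitated library and its input). The RNA-seq values that the authors deposited were raw counts of reads for each gene, with no normalization. For MeRIP-seq, the authors deposited peaks with a fold enrichment, which is a ratio over input, called separately for each pair of libraries. The submitters' processing notes name hg38, cutadapt 2.5, HISAT2 2.1.0, featureCounts 1.6.3 and HOMER 4.10.4, without saying which step each served. The table of counts is named for HTSeq, and the library kit was stranded, but whether counting used strand is not given in the sources used here. The depth of the peak lists is unknown. Symbols were given to 11675 of the 11810 genes measured (98.9%).

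Counts were scaled by TMM in edgeR 4.0.16 (R 4.3.3). Responses were differences of log2(CPM + 0.5), which understate the change of genes with low counts. Members and classes followed the limits given at the start of the results. Counting intervals (95%) used the Poisson error of the counts, and a count of 0 was taken to allow up to 3 counts. Rapamycin was compared with control by edgeR's quasi-likelihood test after filterByExpr, with Benjamini-Hochberg adjustment, and by DESeq2 1.42.0. Pairing was checked over 11810 genes, where rapamycin 1 minus rapamycin 2 and control 1 minus control 2 had r = 0.901. The numbers were taken as pairs from the numbering of the MeRIP-seq labels, which the RNA-seq labels of cell line contradict. The code for classes and fits was tested on simulated data.

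Members, gene lists (21) and rules were chosen with earlier results of these data known. The genes named were, at 5 CPM or more in both pairs, up to 8 protein-coding genes per direction of opposite response, 4 per class specific to a pair, and up to 4 per list with the largest difference. The other opposite genes and further list members were added after their values were seen, as were the promoter motifs. Some genes that meet these rules are not reported here, though the counts include them. Motif searches in 3 other lists were void, because promoters were found for fewer than 80% of their genes (29 of 38 interferon-stimulated genes, 18 of 25 NRF2 targets and 22 of 28 ATF4 targets). Alternatives were other scalings, pseudocounts, CPM minimums and fold thresholds, DESeq2, the replicate block, other filters, and each library left out.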

Additional observations from a re-analysis of the deposited data

Results flagged for a closer look

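All 15 genes with opposite responses were singled out because the only pair of libraries in 1 number moved one way and the only pair in the other moved the opposite way. The difference was not tested, since no residual degree of freedom is left. On the log2 scale, pair 1 minus pair 2, the genes above 0 included CHAC1 at 6.16, CXCL2 at 4.18, CXCL1 at 2.97 and ZFP69B at 2.21. The difference was -4.47 for CYP24A1, -3.71 for SPP1, -3.03 for TRIM16L, -2.78 for TNIK, -2.77 for PARD6G-AS1, -2.73 for ADGRF1, -2.33 for TNS4, -2.33 for ID1, -2.28 for RHOV and -2.17 for METTL7A. In 7 genes a mean under 5 CPM in 1 pair lay beside the difference. Opposite signs of any size occurred in 3463 of 11810 genes (29.3%).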

How the results depend on the processing

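The number of genes with opposite responses (15) was 32 with a pseudocount of 0.1 CPM, 7 with 2 CPM, 142 at 1.5-fold and 0 at 3-fold. The 7 left with 2 CPM included CXCL2, CHAC1, CXCL1, TRIM16L, SPP1 and ID1. Under other scalings it was 14 each on total counts, with DESeq2 size factors, with upper-quartile scaling and after centring. METTL7A was lost on total counts and with DESeq2 size factors, ZFP69B with upper-quartile scaling, and after centring both were lost and FOXQ1 was gained. Genes specific to pair 1 (89) numbered 155 with a minimum of 1 CPM, 33 with 20 CPM, 463 with no minimum, 373 at 1.5-fold and 18 at 3-fold. In the same order, genes specific to pair 2 (411) numbered 623, 223, 1041, 1004 and 93. Genes alike in both pairs (478) numbered 311 with a pseudocount of 2 CPM, 278 with a minimum of 20 CPM, 1824 at 1.5-fold and 70 at 3-fold. For rapamycin against control, the replicate block gave 1290 calls and DESeq2 36, against 0 without the block, and leaving out each library gave between 0 and 0 calls (60 to 387 genes at an unadjusted p under 0.05). For the genes chosen by rule from the opposite and pair-specific classes, no difference between the pairs changed sign under any scaling or pseudocount. Of their 115 values, 12 moved beyond counting error, all with another pseudocount. The other genes named were not followed singly in this way. The counts over genes with at least 5 CPM in both pairs were added after the data were seen. The cause of these changes was not tested. Leaving out a library leaves no difference of differences. With 1 library per number and treatment, depth limits only the genes of few counts.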
